A study of Homo sapiens with 6 samples.

Results

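The genes described here encode the human aminoacyl-tRNA synthetases, the enzymes that join each amino acid to its transfer RNA before translation, together with the small scaffold proteins that hold several of them in a complex. The set was chosen by name: 39 listed symbols, all found among the 21676 gene symbols of the deposited count table. It holds 19 enzymes of the cytosol (symbols ending in 1, FARSA and FARSB) and 16 enzymes of mitochondria (symbols ending in 2). It also holds 3 scaffold proteins (AIMP1, AIMP2 and EEF1E1) and TARS3, a relative of TARS1 that its symbol alone puts in neither class. All 39 passed the filter on low counts, and the lowest count of any member in any library was 243, for TARS3.

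RNA sequencing was done on the 83 cell line. The submitters give its origin only as SACC, an abbreviation in common use for adenoid cystic carcinoma of the salivary gland. In the series 3 libraries of cells that overexpress ApoD, a secreted lipocalin that binds small lipids, were set against 3 control libraries. How ApoD was introduced, what the control cells received, and whether the line is 1 clone or a pool are not stated in the labels. Libraries are numbered within each group, but nothing says that they came from separate cultures, so the p-values measure only the spread between libraries, which may be technical.

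Each of the 20 amino acids is charged by its own enzyme, and human cells keep 1 set for translation in the cytosol and another, encoded in the nucleus and imported, for translation of the few proteins encoded by mitochondrial DNA. Some enzymes break this division. GARS1 and KARS1 serve both compartments, EPRS1 charges both glutamate and proline, FARSA and FARSB are the 2 subunits of 1 enzyme, and QARS1 has no mitochondrial counterpart. Several cytosolic enzymes sit in the multisynthetase complex around the scaffold proteins AIMP1, AIMP2 and EEF1E1, which charge no tRNA. Many cytosolic synthetase genes are known targets of ATF4, the transcription factor of the integrated stress response to amino acid shortage.

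APOD, the targeted gene, had 628, 528 and 625 counts with ApoD overexpression, against 9, 8 and 2 counts in the controls. The libraries held 37542568 to 40416964 counts with ApoD overexpression and 38845545 to 39583565 in controls. No libraries were copies: the chi-square per degree of freedom within groups ran from 11.6 to 39.5. Of 10 epithelial markers 1 rose (KRT7), 5 fell (KRT14, KRT19, EPCAM, CDH1 and TP63) and 4 were not called, and their summed counts ran from 142784 to 146973 with ApoD overexpression and from 131027 to 169058 in controls. The keratin KRT8 had 1621 ± 139 CPM with ApoD overexpression and 1255 ± 323 CPM in controls, and the cadherin CDH1 31.2 ± 3.47 and 76.1 ± 7.598 CPM (SD, n = 3). CPM are counts scaled to a TMM-adjusted library of 1000000. Of 10 markers of immune, endothelial and fibroblast cells, 9 had a row in the table, and their summed counts ran from 1769 to 2027 with ApoD overexpression and from 1986 to 2891 in controls. Among these, 1 marker rose and 4 fell of the 5 tested (CD68 rose; PECAM1, CDH5, COL1A1 and COL3A1 fell), and PTPRC, PDGFRB and DCN had at most 12 counts in any library. The fibroblast collagen COL1A1 had 537, 343 and 408 counts with ApoD overexpression and 969, 1205 and 1044 in controls, and COL3A1 6, 4 and 4 against 161, 128 and 67. The endothelial gene PECAM1 had 41, 51 and 66 counts with ApoD overexpression and 142, 312 and 402 in controls, and CDH5 1, 0 and 0 against 86, 51 and 20. The part that these marker changes have in the results below was not tested.

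Synthetase transcripts were more abundant in cells with ApoD overexpression, in both compartments but not for every enzyme. Of the 39 genes 23 rose and 1 fell, so that 24 were called, against 48.8% of all genes tested. Of the 19 cytosolic enzymes 13 rose and 0 fell, with a median log2 fold change of 0.60. Of the 16 mitochondrial enzymes 8 rose and 1 fell, with a median of 0.24. Among the scaffold proteins 2 of 3 rose, and AIMP2, at 1.38, had the largest change of all 39 genes. Over all 14629 genes tested, 24.2% rose and 24.6% fell, and the median was −0.02. Calls are by edgeR's quasi-likelihood test with an adjusted p under 0.05 over all genes tested, and each fold change is ApoD overexpression over control. Scaling by library totals alone shifted the median of all genes by −0.12 and gave 2580 genes higher and 4435 lower, against 3539 higher and 3601 lower with TMM. Under that scaling 12 cytosolic enzymes rose and 1 fell, and 6 mitochondrial enzymes rose and 1 fell, with a mitochondrial median of 0.12. With each library's abundance trend removed by a lowess fit, the cytosolic median was 0.40 and the mitochondrial median 0.22, so that the classes lay closer together.

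Summed over the class, the cytosolic enzymes had 4343, 4430 and 4663 CPM with ApoD overexpression, against 3535, 2958 and 2905 CPM in controls. The mitochondrial enzymes summed to 919, 920.5 and 939.7 CPM with ApoD overexpression, against 865, 761 and 722 CPM in controls. The groups did not overlap for either sum, and control replicate 1 was the highest control in both. The mean sum with ApoD overexpression was 1.43 times that of controls for the cytosolic enzymes and 1.18 times for the mitochondrial ones. The difference between these classes was not tested, since members of a class are not replicates. These are bulk libraries, in which fewer cells with a transcript and less RNA per cell cannot be told apart.

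**Figure D1:**
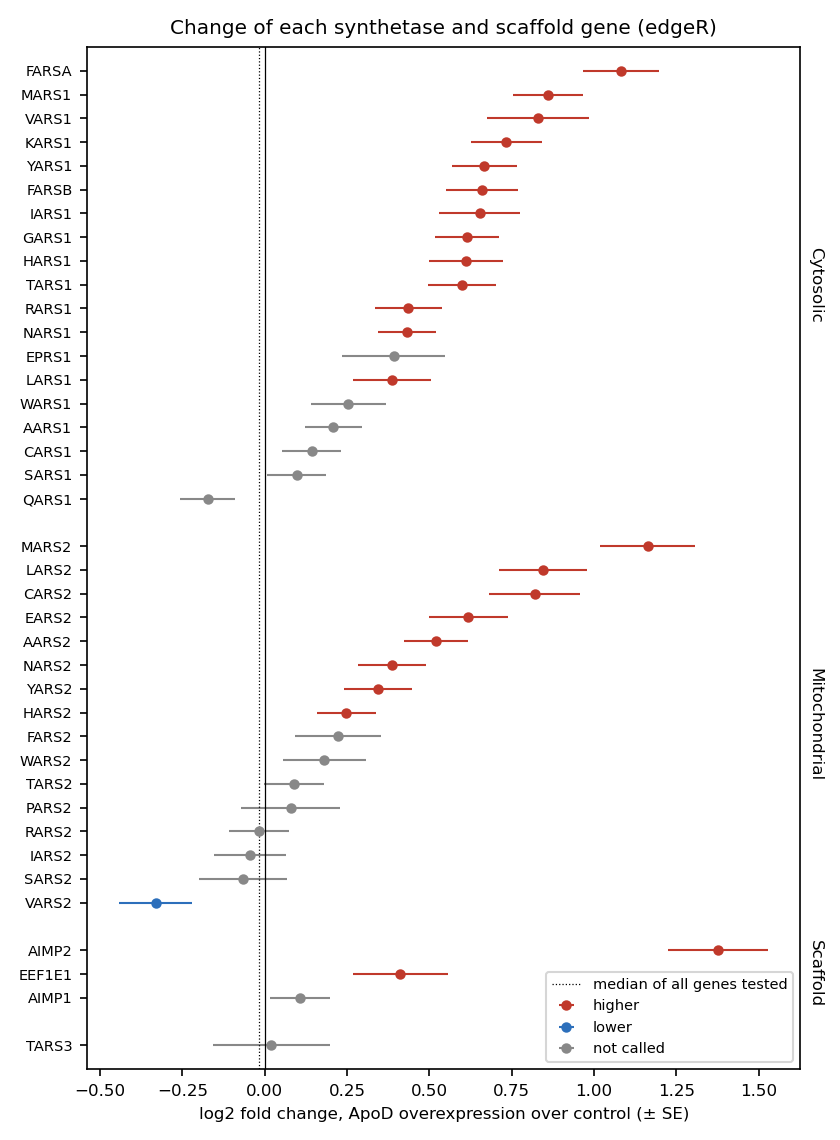
Log2 fold change of each gene, ApoD overexpression over control, with its standard error, grouped by class and sorted within it; red is higher, blue lower and grey not called, and the dotted line is the median of all genes tested. AIMP2 at 1.38, MARS2 at 1.16 and FARSA at 1.08 lie furthest right, and VARS2 at −0.33 is the only gene called lower.

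The promoters of the members were read to show what the genes share beside their function. RefSeq promoter windows on GRCh38.p14, 250 bases before to 50 bases after a gene's start, matched 33 of the 39 genes, with 45 windows in all. AARS2, LARS1, TARS3, VARS1, VARS2 and YARS1 had no window. Motifs were searched on both strands and were chosen with the changes already known. The first was the E-box CACGTG, the palindrome bound by MYC and other basic helix-loop-helix factors, found in 7.26% of all 35116 windows. It lay in the windows of 5 members, 1 cytosolic enzyme, 3 mitochondrial enzymes and 1 scaffold, and 5 of these 5 genes rose. Of the 28 matched genes without it 14 rose. Over all tested genes with a window, 12.2% held the motif; 33.6% of those rose and 19.3% fell, against 24.0% and 24.3% of those without it. The E-box sites are shown with 12 bases on each side, 5′ to 3′ on the gene's strand, with the E-box in capitals.
AIMP2: ccgggcgctggcCACGTGcaggtaggagcg
CARS2: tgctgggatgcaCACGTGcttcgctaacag
EARS2: cagggagaagccCACGTGtgctattccatc
IARS1: tggttcgttttcCACGTGgaggcgcaaaac
MARS2: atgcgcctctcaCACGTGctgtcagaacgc

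The stretches shown are, on GRCh38.p14, chr7:6009478-6009507 on the plus strand for AIMP2, chr13:110706501-110706530 on the minus strand for CARS2, chr16:23557348-23557377 on the minus strand for EARS2, chr9:92293866-92293895 on the minus strand for IARS1 and chr2:197705346-197705375 on the plus strand for MARS2. These letters say nothing of which factor, if any, was bound in these cells. The build behind the deposited counts is not given in the sources used here, so the coordinates belong to the RefSeq windows alone.

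The other motif was TGATGNAAN, the form of the C/EBP-ATF response element to which ATF4 binds, found in 3.61% of all windows. It lay in 8 of the 33 matched members, 24.2%, against 2.82% of all tested genes with a window. The 8 were 7 cytosolic enzymes and YARS2, and 6 of them rose while AARS1 and CARS1 did not pass the test. Over all tested genes 23.8% of those with the motif rose, against 25.2% of those without. The sites of the 7 cytosolic enzymes are shown so that their letters can be compared, with the motif in capitals, in the direction of the gene; most read as its reverse complement.
AARS1: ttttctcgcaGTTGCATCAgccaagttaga
CARS1: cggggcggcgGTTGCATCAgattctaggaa
GARS1: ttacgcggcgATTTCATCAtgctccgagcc
IARS1: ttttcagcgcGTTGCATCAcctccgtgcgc
MARS1: gccggttccgGTTGCATCAgcgagggattc
NARS1: ctacgctctcTGATGCAACgccggaatcgc
TARS1: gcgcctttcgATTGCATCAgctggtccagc

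On GRCh38.p14 these are chr16:70289675-70289704 on the minus strand for AARS1, chr11:3057407-3057436 on the minus strand for CARS1, chr7:30594834-30594863 on the plus strand for GARS1 and chr9:92293692-92293721 on the minus strand for IARS1. The others are chr12:57488053-57488082 on the plus strand for MARS1, chr18:57621803-57621832 on the minus strand for NARS1 and chr5:33440956-33440985 on the plus strand for TARS1. The AARS1 motif begins at −188 from the gene's start, and the others lie between −34 and 15. GTTGCATCA is shared letter for letter by AARS1, CARS1, IARS1 and MARS1, and NARS1 holds its reverse complement TGATGCAAC. Of these, IARS1, MARS1 and NARS1 rose, and AARS1 and CARS1 were not called.

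FARSA, the catalytic subunit of cytosolic phenylalanyl-tRNA synthetase, had the largest change of the cytosolic enzymes. It had 180.0, 206 and 191 CPM with ApoD overexpression, against 107, 84.0 and 81.1 CPM in controls. Every ApoD overexpression library lay above every control, and the log2 fold change was 1.08 ± 0.11 (SE, edgeR adjusted p = 2.03e-05). Its partner subunit FARSB had 95.7, 80.9 and 97.9 CPM with ApoD overexpression, against 64.2, 51.6 and 57.9 CPM in controls. FARSB also rose without overlap, by 0.66 ± 0.11 on the log2 scale (SE, edgeR adjusted p = 0.000451).

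MARS1, which charges methionine for initiation and elongation in the cytosol, had 201, 223 and 236 CPM with ApoD overexpression, against 135, 107 and 121 CPM in controls. The log2 fold change was 0.86 ± 0.11 (SE, edgeR adjusted p = 5.38e-05), and FARSA and MARS1 were the cytosolic enzymes that also passed a test against a change of 1.5-fold. MARS1 overlaps the stress gene DDIT3 on the opposite strand over 0.584% of its 50-base stretches, and DDIT3 had 19.3 ± 1.22 CPM with ApoD overexpression and 18.0 ± 0.707 CPM in controls (SD, n = 3). VARS1, the valine enzyme, had 334, 377 and 385 CPM with ApoD overexpression, against 270.0, 181 and 166 CPM in controls. The groups were apart, although control replicate 1 stood far above the other controls; the change was 0.83 ± 0.16 (SE, edgeR adjusted p = 0.000950).

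KARS1, the lysine enzyme shared by cytosol and mitochondria, had 328, 386 and 355 CPM with ApoD overexpression, against 245, 197 and 200.2 CPM in controls. Its change was 0.73 ± 0.11 (SE, edgeR adjusted p = 0.000174), with no overlap. GARS1, the other enzyme with a place in both compartments, had 240.4, 255 and 279 CPM with ApoD overexpression, against 185, 158 and 163 CPM in controls, a log2 fold change of 0.61 ± 0.10 (SE). Without these 2 genes 11 of 17 cytosolic enzymes rose, and the median was 0.44.

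The remaining enzymes that rose did so by 0.39 to 0.67 on the log2 scale. YARS1 for tyrosine, IARS1 for isoleucine, HARS1 for histidine and TARS1 for threonine rose by 0.67 ± 0.10, 0.65 ± 0.12, 0.61 ± 0.11 and 0.60 ± 0.10 (SE). RARS1 for arginine, NARS1 for asparagine and LARS1 for leucine rose by 0.44 ± 0.10, 0.43 ± 0.09 and 0.39 ± 0.12 (SE). The highest edgeR adjusted p of these 7 was 0.0182, for LARS1, whose groups overlapped. LARS1 had 174, 137 and 173 CPM with ApoD overexpression, against 142, 113 and 115 CPM in controls, so that ApoD overexpression replicate 2 lay below control replicate 1. LARS1 lost its call when control replicate 2 (adjusted p = 0.0878) or ApoD overexpression replicate 3 (0.0505) was left out, with library totals (0.0826), with each library's abundance trend removed (0.148) and in the FPKM fits, in a range of adjusted p over all alternatives of 0.00149 to 1.

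Not every cytosolic enzyme was called. EPRS1, the fused glutamate and proline enzyme, had 298, 216 and 317 CPM with ApoD overexpression, against 257, 199 and 177 CPM in controls. Its groups overlapped because ApoD overexpression replicate 2 was low and control replicate 1 high, and the change of 0.39 ± 0.16 (SE) missed the threshold (edgeR adjusted p = 0.0544). Without ApoD overexpression replicate 2 it was 0.53 (adjusted p = 0.0107), and without control replicate 1 it was 0.56 (0.00229), in a range of adjusted p over all alternatives of 0.00229 to 1. WARS1 for tryptophan, AARS1 for alanine, CARS1 for cysteine and SARS1 for serine had log2 fold changes of 0.25 ± 0.11, 0.21 ± 0.09, 0.14 ± 0.09 and 0.10 ± 0.09 (SE), with edgeR adjusted p-values of 0.0821, 0.0650, 0.213 and 0.390. WARS1 passed without control replicate 1 (0.40, adjusted p = 0.00367), and AARS1 without ApoD overexpression replicate 1 (0.28, adjusted p = 0.0410); over all alternatives the adjusted p ran from 0.00367 to 1 for WARS1 and from 0.0410 to 1 for AARS1.

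QARS1, the glutamine enzyme, was the only cytosolic enzyme with a negative value. It had 169.9, 181 and 172 CPM with ApoD overexpression, against 190.4, 206 and 193 CPM in controls. Every ApoD overexpression library lay below every control, yet the change of −0.17 ± 0.08 (SE) did not pass with TMM scaling (edgeR adjusted p = 0.107). It was −0.29 with library totals (adjusted p = 0.00963) and −0.37 after removal of the abundance trend (0.00329), and both passed, in a range over all alternatives of 0.00329 to 1. Over all cytosolic enzymes 13 of 19 were higher and 1 of 19 lower with no overlap between the groups, against 29.0% and 29.7% of all genes tested and 58.7% in either direction.

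Enzymes inside and outside the multisynthetase complex are set side by side here; the difference was not tested. Of its 7 enzymes listed here (EPRS1, IARS1, KARS1, LARS1, MARS1, QARS1 and RARS1) 5 rose, with a median log2 fold change of 0.44. Of the 12 cytosolic enzymes outside it 8 rose, with a median of 0.61. Of 13 cytosolic enzymes listed as targets of ATF4 8 rose, with a median of 0.43, and of the 6 off that list (FARSA, FARSB, HARS1, KARS1, QARS1 and RARS1) 5 rose, with a median of 0.64. By the structural division of the enzymes across both compartments, 11 of 18 class I enzymes rose and 1 fell. Among 17 class II enzymes, TARS3 included, 10 rose and 0 fell. EPRS1, which joins both types, is in neither count. All these counts stand beside 24.2% of all genes tested that rose and 24.6% that fell.

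**Figure D2:**
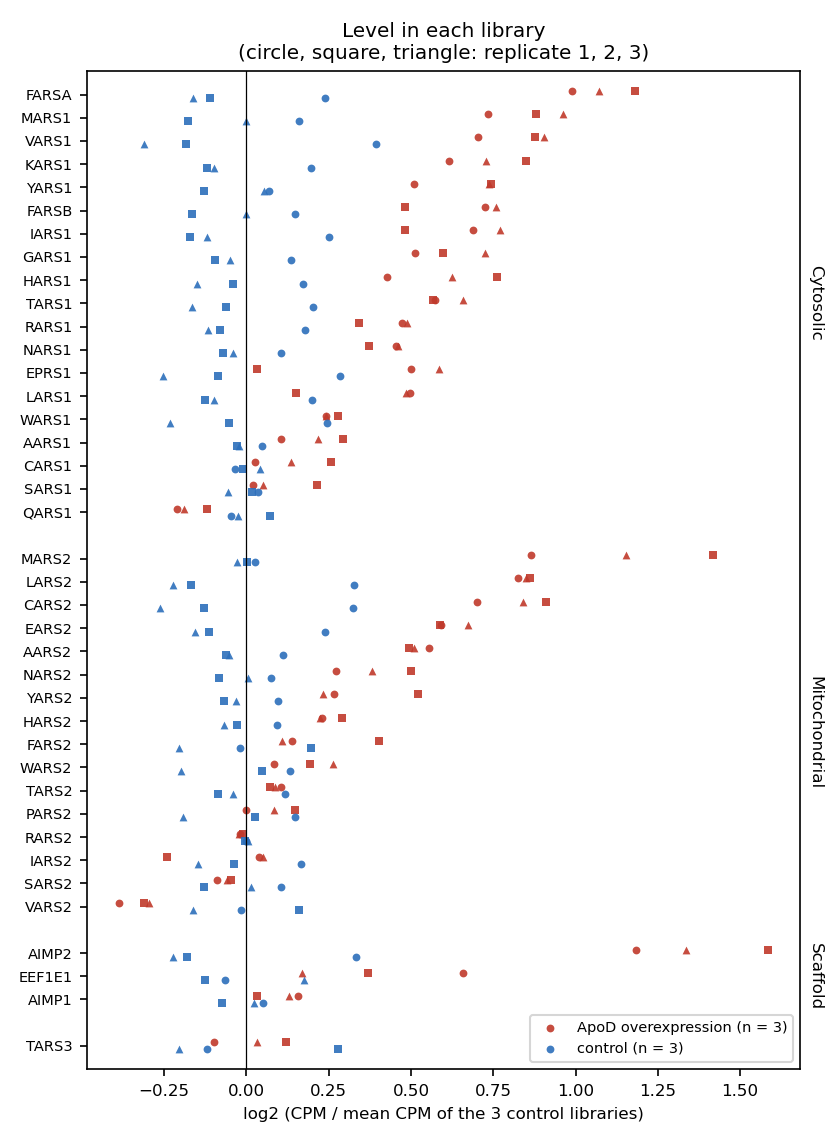
Level of each gene in each of the 6 libraries, as log2 of CPM over the mean CPM of the 3 controls; red is ApoD overexpression, blue is control, and the marker shape gives the replicate number. For AIMP2 the ApoD overexpression libraries hold 105 to 139 CPM and lie to the right of the controls at 39.8 to 58.5 CPM, while the symbols of EPRS1 and LARS1 mix.

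Among the mitochondrial enzymes the leucine, methionine and cysteine enzymes changed most. MARS2 had 18.5, 27.2 and 22.6 CPM with ApoD overexpression, against 10.4, 10.2 and 9.98 CPM in controls. The controls lay within a narrow range and the ApoD overexpression libraries spread widely above it, with a log2 fold change of 1.16 ± 0.15 (SE, edgeR adjusted p = 6.02e-05). LARS2 had 75.5, 77.4 and 76.8 CPM with ApoD overexpression, against 53.4, 37.9 and 36.5 CPM in controls. Here the spread lay in the controls, where replicate 1 was high, and the change was 0.84 ± 0.13 (SE, edgeR adjusted p = 0.000310).

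CARS2 had 80.7, 93.4 and 89.1 CPM with ApoD overexpression, against 62.2, 45.4 and 41.5 CPM in controls, a log2 fold change of 0.82 ± 0.14 (SE, edgeR adjusted p = 0.000479). EARS2, which charges glutamate and also feeds the indirect route to mitochondrial glutaminyl-tRNA, had 39.4, 39.4 and 41.8 CPM with ApoD overexpression, against 30.9, 24.2 and 23.5 CPM in controls. It rose by 0.62 ± 0.12 on the log2 scale (SE, edgeR adjusted p = 0.00118). AARS2 for alanine had 47.5, 45.6 and 46.1 CPM with ApoD overexpression, against 34.9, 31.0 and 31.2 CPM in controls, and rose by 0.52 ± 0.10 (SE, edgeR adjusted p = 0.000928). No group overlapped for these 3 genes.

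NARS2 for asparagine, YARS2 for tyrosine and HARS2 for histidine rose less, by 0.39 ± 0.10, 0.35 ± 0.10 and 0.25 ± 0.09 on the log2 scale (SE), with edgeR adjusted p-values of 0.00848, 0.0152 and 0.0380. The HARS2 call was the least stable of the class: it was lost in 12 of 16 alternatives, among them leaving out any library other than control replicate 1 (adjusted p of 0.0510 to 0.129), library totals (0.214) and the replicate block (0.101), in a range over all alternatives of 0.0267 to 1. YARS2 lost its call without control replicate 2 (0.0727), with library totals (0.0734), after removal of the abundance trend (0.112) and in the FPKM fits, in a range over all alternatives of 0.00603 to 1. For both genes the value was positive in every one of these fits.

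VARS2, the mitochondrial valine enzyme, was the only member called lower. It had 24.3, 25.6 and 25.9 CPM with ApoD overexpression, against 31.4, 35.5 and 28.4 CPM in controls. The groups did not overlap, and VARS2 fell by 0.33 ± 0.11 on the log2 scale (SE, edgeR adjusted p = 0.0268). That call did not hold without control replicate 2 (adjusted p = 0.150), without ApoD overexpression replicate 1 (0.101) or replicate 3 (0.0794), and with the replicate block (0.0567), in a range over all alternatives of 0.00520 to 1.

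Of the other 7 mitochondrial enzymes none passed. FARS2 for phenylalanine and WARS2 for tryptophan had log2 fold changes of 0.22 ± 0.13 and 0.18 ± 0.13 (SE), and TARS2 for threonine and PARS2 for proline 0.09 ± 0.09 and 0.08 ± 0.15. RARS2 for arginine, IARS2 for isoleucine and SARS2 for serine had −0.02 ± 0.09, −0.04 ± 0.11 and −0.07 ± 0.13. The edgeR adjusted p-values of these 7 ran from 0.174 for FARS2 to 0.894 for RARS2. RARS2 had 37.2, 37.4 and 37.1 CPM with ApoD overexpression, against 37.6, 37.6 and 37.9 CPM in controls, so that the groups did not overlap although their means differed by little. Over the 16 enzymes 8 were higher and 2 lower, RARS2 and VARS2, with no overlap between the groups, a share near the 58.7% of all genes tested. For SARS2, 61.3% of its 50-base stretches recur in AC011455.2 on the same strand and 12.7% in MRPS12 on the other, so its counts are uncertain. TARS3, in neither class by its symbol, had 6.32, 7.35 and 6.92 CPM with ApoD overexpression, against 6.22, 8.204 and 5.87 CPM in controls. Its log2 fold change was 0.02 ± 0.18 (SE, edgeR adjusted p = 0.936). With TARS3 counted among the cytosolic enzymes, 13 of 20 rose and their median log2 fold change was 0.52.

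The ratio of a cytosolic enzyme to the mitochondrial enzyme for the same amino acid does not depend on a factor applied to a whole library. It can change under a scaling that varies with abundance, such as removal of the abundance trend. The ratios here are of unscaled counts and were not computed under that scaling. Of 17 pairs of such enzymes, 7 had a higher ratio in every ApoD overexpression library than in any control, 3 had a lower one, and 7 overlapped. The share of pairs with no overlap is thus near the 58.7% of all single genes tested. That 58.7% is for CPM of single genes, and no such share was computed for ratios of other gene pairs. The pairs below are given as values only. The pairs with a higher ratio were those of valine, phenylalanine (FARSA), isoleucine, threonine, arginine, histidine and tyrosine. The pairs with a lower ratio, shifted towards the mitochondrial enzyme, were those of cysteine, leucine and alanine. With 3 libraries against 3 the exact two-sided permutation test can give no p below 0.1, which is the p of these 10 pairs (0.17 adjusted over the 17 pairs), so none could pass 0.05. EPRS1 and FARS2 each stand in 2 pairs, and the pairs are therefore not independent.

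The valine pair moved furthest. VARS1 had 13.8, 14.7 and 14.9 counts for each VARS2 count with ApoD overexpression, against 8.60, 5.11 and 5.83 in controls, a difference of the mean log2 ratio of 1.19 ± 0.23 (SE). For isoleucine the ratio IARS1 to IARS2 was 1.71, 1.80 and 1.80 with ApoD overexpression, against 1.16, 0.995 and 1.11 in controls, a difference of 0.71 ± 0.07 (SE). The valine shift came from a rise of one enzyme and a fall of the other, and the isoleucine shift from a rise of IARS1 beside an IARS2 value near 0. For FARSA over FARS2 the difference was 0.86 ± 0.17, and for TARS1 over TARS2 it was 0.52 ± 0.07 (SE).

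The cysteine pair moved the other way. CARS1 had 1.53, 1.55 and 1.49 counts for each CARS2 count with ApoD overexpression, against 1.90, 2.65 and 3.003 in controls, a difference of −0.70 ± 0.20 on the log2 scale (SE). The ratio LARS1 to LARS2 was 2.31, 1.77 and 2.25 with ApoD overexpression, against 2.66, 2.99 and 3.16 in controls, a difference of −0.48 ± 0.14 (SE). AARS1 over AARS2 differed by −0.32 ± 0.08 (SE). For methionine both enzymes rose, and the ratio overlapped between groups, at −0.28 ± 0.16 (SE, exact permutation p = 0.2, n = 3 each).

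**Figure D3:**
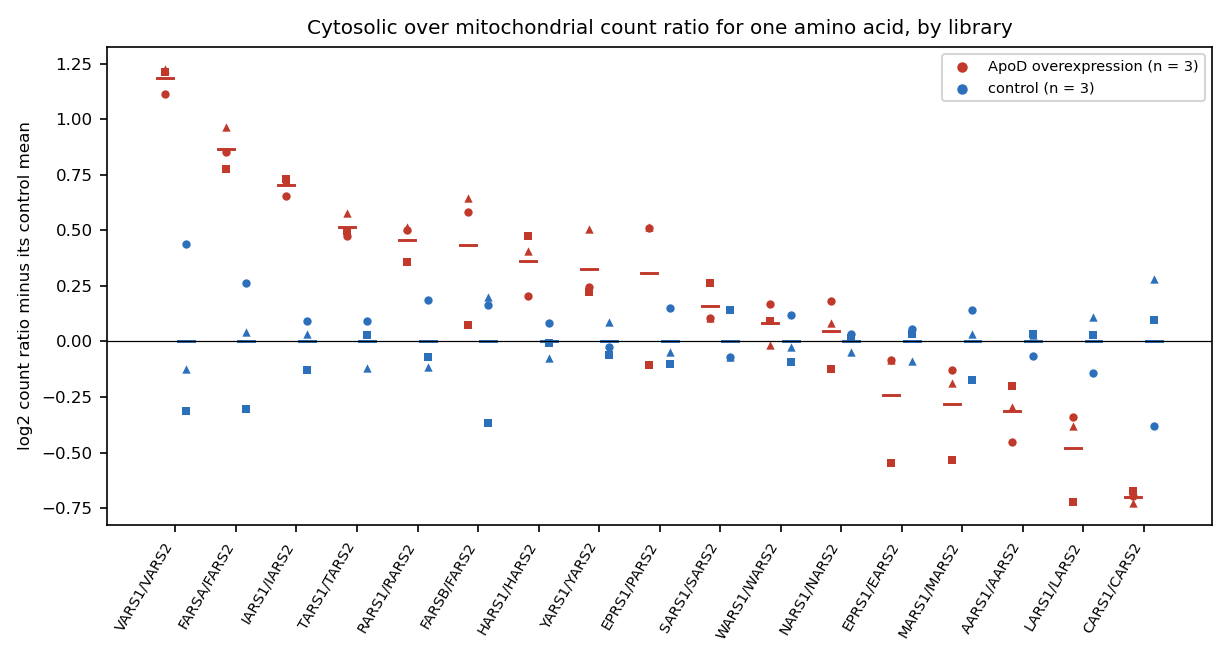
Log2 ratio of cytosolic to mitochondrial counts for the same amino acid in each library, minus its mean in the 3 controls, with ApoD overexpression in red to the left of controls in blue and a bar at each mean; marker shape gives the replicate number. The order runs from VARS1/VARS2, 1.19 above its control mean, to CARS1/CARS2, 0.70 below it (a difference of −0.70).

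HARS1 and HARS2 are neighbours that start back to back. In the RefSeq windows 84 bases lie between their starts, on chr5:140691371-140691454 of GRCh38.p14, shown on the plus strand, the strand of HARS2, because a single stretch precedes both genes. The capitals mark the 2 matches of CCGGAAG, the core bound by ETS factors, searched on both strands and found in 10.3% of all windows.
HARS1-HARS2: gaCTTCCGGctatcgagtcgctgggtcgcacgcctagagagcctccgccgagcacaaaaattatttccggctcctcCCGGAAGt

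HARS1 had 121, 152 and 138 CPM with ApoD overexpression, against 101, 87.2 and 81.0 CPM in controls, and HARS2 had 64.1, 66.8 and 63.7 CPM, against 58.2, 53.5 and 52.1 CPM in controls. Their ratio was 1.89, 2.28 and 2.17 with ApoD overexpression, against 1.74, 1.63 and 1.56 in controls. The mean log2 ratio differed by 0.36 ± 0.09 (SE, exact permutation p = 0.1, n = 3 each). That p is the lowest this test can give, so a difference in how far these genes moved was not established. Transcripts of HARS2 on the opposite strand matched 8.80% of the 50-base stretches of HARS1, and the strand setting of the counting is not given, so reads of these stretches cannot be told apart.

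The scaffold proteins differed among themselves. AIMP2, which holds the multisynthetase complex together, had 105, 139 and 117 CPM with ApoD overexpression, against 58.5, 41.0 and 39.8 CPM in controls. The groups were far apart, and AIMP2 rose 2.60-fold, with a log2 fold change of 1.38 ± 0.15 (SE, edgeR adjusted p = 2.58e-05). AIMP2 is a gene with a neighbour on the other strand: 34.1% of its 50-base stretches were matched by EIF2AK1, the kinase HRI. EIF2AK1 itself had 297.5 ± 13.5 CPM with ApoD overexpression and 341 ± 13.8 CPM in controls (SD, n = 3), a log2 fold change of −0.20 ± 0.08 (SE, edgeR adjusted p = 0.0751).

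EEF1E1, also called AIMP3, had 23.3, 19.1 and 16.6 CPM with ApoD overexpression, against 14.1, 13.5 and 16.7 CPM in controls. ApoD overexpression replicate 3 lay at the level of control replicate 3, and the rise of 0.41 ± 0.15 on the log2 scale (SE, edgeR adjusted p = 0.0334) was lost in 10 of 16 alternatives. Among them were leaving out ApoD overexpression replicate 1 (adjusted p = 0.123) or replicate 2 (0.0601), or control replicate 1 (0.0511) or replicate 2 (0.126), library totals (0.140) and the replicate block (0.0552), in a range over all alternatives of 0.0138 to 1. A read-through transcript with BLOC1S5 shares 16.5% of the 50-base stretches of EEF1E1. AIMP1, the third scaffold and the precursor of a secreted cytokine, had 63.9 ± 2.92 CPM with ApoD overexpression and 59.3 ± 2.65 CPM in controls (SD, n = 3), a log2 fold change of 0.11 ± 0.09 (SE, edgeR adjusted p = 0.347).

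Levels of different genes were compared as FPKM, the authors' counts scaled for gene length and library size, since CPM depends on length. The cytosolic enzymes had a median level of 68.3 FPKM with ApoD overexpression and 49.7 FPKM in controls. The mitochondrial enzymes had a median of 8.64 FPKM with ApoD overexpression and 8.34 FPKM in controls. TARS1 was the most abundant member, at 185 ± 7.31 FPKM with ApoD overexpression and 132 ± 15.3 FPKM in controls (SD, n = 3), followed by KARS1 at 149.6 ± 10.01 and 97.5 ± 10.8 FPKM. QARS1, at 68.3 ± 1.35 FPKM with ApoD overexpression and 83.5 ± 3.84 FPKM in controls, came next in controls, within the spread of IARS2.

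Both classes had members that lay with the other. IARS2, at 74.2 ± 9.11 FPKM with ApoD overexpression and 82.9 ± 7.69 FPKM in controls (SD, n = 3), was as abundant as the cytosolic enzymes, and in controls the level of IARS1 was 0.793 ± 0.0612 times that of IARS2. FARSB, at 9.55 ± 1.07 FPKM with ApoD overexpression and 6.55 ± 0.681 FPKM in controls, was the least abundant cytosolic gene and lay among the mitochondrial ones, although its partner FARSA had 102 ± 5.32 and 52.1 ± 7.32 FPKM. The length behind the FPKM of FARSB, 9202 bases, was the longest of the set, while its GENCODE transcripts hold 3320 distinct 50-base stretches. For FARS2 the length was 7099 bases beside 2381 such stretches, so its place and that of FARSB among the levels are uncertain. At the low end MARS2 had 7.21 ± 1.27 FPKM with ApoD overexpression and 3.50 ± 0.0164 FPKM in controls, FARS2 3.85 ± 0.400 and 3.58 ± 0.457 FPKM, and PARS2 3.73 ± 0.138 and 3.82 ± 0.370 FPKM. These controls did not differ beyond their spread, and only TARS3 was lower, at 1.397 ± 0.0845 FPKM with ApoD overexpression and 1.49 ± 0.267 FPKM in controls.

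**Figure D4:**
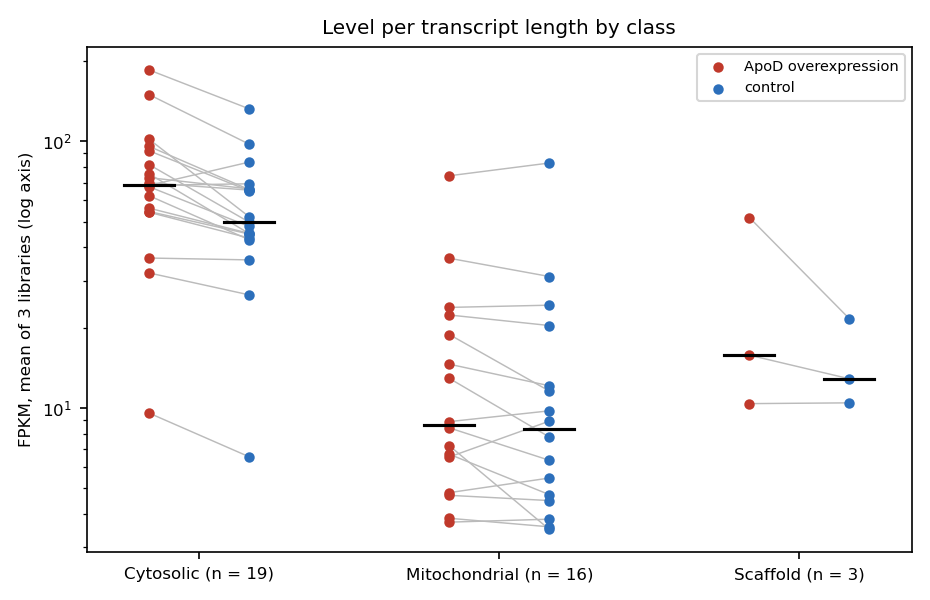
Mean FPKM of each gene over 3 libraries on a log axis, ApoD overexpression in red to the left and control in blue to the right within each class, joined by a line per gene, with a black bar at the median. The cytosolic median is 68.3 against 49.7 FPKM and the mitochondrial median 8.64 against 8.34 FPKM, with FARSB low in the first class and IARS2 high in the second.

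Control replicate 1 was the highest control for 32 of the 39 genes, against 5847 of 14431 tested genes with counts in every library. Its log2 excess over the mean of the other controls had a median of 0.20 over the members and 0.01 over those genes, and reached 0.64 for VARS1 and 0.53 for AIMP2. Without it VARS1 changed by 1.09 and AIMP2 by 1.59 on the log2 scale, against 0.83 and 1.38 with it. In the other group replicate 2 was the highest ApoD overexpression library for 21 of the 39 genes and the lowest for 12, against 5238 and 5505 of the 14431 genes, with a median log2 difference of 0.03 from the others over the members. It was below the mean of the other ApoD overexpression libraries by 0.51 for EPRS1 (log2 difference −0.51), 0.34 for LARS1 (−0.34) and 0.29 for IARS2 (−0.29), and above it by 0.40 for MARS2. Over the 39 genes this difference ran against the gene length behind the FPKM, with Spearman's rho of −0.39, and over the 14431 genes rho was −0.36. This is a correlation across genes that share the same libraries, given as a description; what lies behind it was not tested.

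Genes that work beside the synthetases were read from 3 lists. Of 11 tested enzymes and cofactors that complete or proofread charging, 5 rose and 1 fell, with a median log2 fold change of 0.30, against 24.2% and 24.6% of all genes tested. DTD1, which removes D-amino acids from tRNA, rose by 0.60 ± 0.10 (SE). GATC and GATB, subunits of the amidotransferase that makes mitochondrial glutaminyl-tRNA from the product of EARS2, both rose by 0.36, with SE of 0.09 and 0.11. SEPSECS, which makes selenocysteinyl-tRNA, fell by 0.39 ± 0.15 on the log2 scale. The highest edgeR adjusted p of these 4 was 0.0458, for SEPSECS.

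Of 11 genes of tRNA export, delivery and elongation, 6 rose and 1 fell, with a median of 0.32. Of all genes tested 24.2% rose and 24.6% fell. The mitochondrial elongation factor GFM1 had 92.0 ± 3.51 CPM with ApoD overexpression and 52.1 ± 8.52 CPM in controls (SD, n = 3), a log2 fold change of 0.82 ± 0.12 (SE). XPOT, the exportin that carries tRNA out of the nucleus, rose by 0.54 ± 0.09 (SE). EEF1B2, a subunit of the cytosolic elongation factor exchange complex, and TSFM, the mitochondrial exchange factor, rose by 0.44 ± 0.12 and 0.43 ± 0.12 (SE). The highest edgeR adjusted p of these 4 was 0.0114, for TSFM. Named after their values were seen, EEF1A2 fell and EEF1A1, EEF2, EEF1G and GFM2 were not called. EEF1A2 had a log2 fold change of −0.41 ± 0.08 (SE, edgeR adjusted p = 0.001625). The genes not called had −0.03, 0.02, −0.06 and −0.02, in the order given.

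Of 24 integrated stress response genes tested, 7 rose, 4 fell and 13 were not called, with a median of 0.03, a share of calls near the 48.8% of all genes. ATF5 had 26.9 ± 4.75 CPM with ApoD overexpression and 8.53 ± 2.32 CPM in controls, and the serine synthesis gene PSAT1 119 ± 9.92 and 52.4 ± 7.35 CPM (SD, n = 3). Both rose, by 1.65 ± 0.20 and 1.18 ± 0.12 on the log2 scale (SE). CTH, an enzyme of cysteine synthesis, fell by 1.77 ± 0.17, and the stress gene NUPR1, with 24, 9 and 18 counts against 59, 120 and 147 in controls, fell by 2.56 ± 0.44. The highest edgeR adjusted p of these 4 was 0.000508, for NUPR1. ATF4 itself, named after its value was seen, rose by 0.28 ± 0.10 (SE, edgeR adjusted p = 0.0392). The other genes of the list that rose, likewise named after their values were seen, were PPP1R15A, EIF2S1, GCN1 and STC2, by 0.58, 0.53, 0.49 and 0.35 on the log2 scale. The other genes of the list that fell, also named after their values were seen, were DDIT4 and EIF2AK3. Their log2 fold changes were −1.18 ± 0.13 and −0.44 ± 0.14 (SE), with edgeR adjusted p-values of 2.05e-05 and 0.0202. The ATF4 targets PSAT1, STC2 and PPP1R15A thus rose, while DDIT4, CTH and NUPR1 of the same list fell. The 13 genes not called included the ATF4 targets TRIB3, CHAC1, SESN2 and ASNS, also named after their values were seen. Their log2 fold changes were 0.15, 0.61, −0.13 and −0.78. CHAC1 and ASNS were low, at 3.11 and 0.54 CPM with ApoD overexpression and 2.03 and 0.93 CPM in controls (means), with SE of 0.28 and 0.46. Others not called were ATF3, DDIT3, PHGDH and SLC7A11, at −0.24, 0.10, −0.06 and 0.03.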

How the data were processed

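The members and gene lists were chosen with earlier results of these data known. RNA came from an RNeasy kit and a SMARTER mRNA-Seq library kit, per the labels' protocols; the aligner, counting program, strand setting and build were not given in the sources used here. The authors deposited whole-number counts per gene symbol and FPKM values that rescale them; FPKM served for levels between genes and as an alternative unit, and 0 columns were without a sample.

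The counts were scaled by TMM, filtered by filterByExpr (minimum count 10; 14629 genes) and tested two-sided with the quasi-likelihood test of edgeR 4.0.16 (R 4.3.3), group as the only term, with Benjamini-Hochberg adjustment over all genes tested. The SE is the log2 fold change over the root of F. The fit was first tested on simulated counts with known changes. It recovered 38.8% of 1.5-fold changes, 92.5% of 2-fold changes and 97% of 4-fold changes, with 4 false calls among 14629 genes. The spread of the simulated counts was a fixed setting that may differ from that of these libraries. A gene that was not called is therefore not shown to be unchanged. The rule for named genes gave all 39 members, APOD and up to 4 called genes of each further list by size of change; not all are printed.

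Alternatives were library totals, no low-count filter, DESeq2 1.42.0 (its size factors, and its Wald test), a test against 1.5-fold, limma 3.58.1 on log2(FPKM + 1) or log2(FPKM + 0.1) with at least 1 FPKM in 3 libraries or without that filter, a lowess fit that removes each library's abundance trend, a replicate block, and each library left out. Shared 50-base stretches were found in GENCODE 29 transcripts, which need not match the authors' annotation. The libraries held 37542568 to 40416964 counts, and no member had fewer than 243 counts in a library.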

Additional observations from a re-analysis of the deposited data

How the results depend on the processing

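Of the 24 called members, 19 kept their call in every alternative but the test against a 1.5-fold change, which AIMP2, FARSA, MARS1 and MARS2 passed; the other 5 are HARS2, LARS1, YARS2, VARS2 and EEF1E1, and no value of a called member changed sign. That test called 2 cytosolic enzymes higher, 1 mitochondrial enzyme higher and 0 lower, and over all genes 545 higher and 1430 lower. Unfiltered FPKM called 2317 genes higher. Library totals, the abundance trend removed and all 3 FPKM fits called 1 cytosolic enzyme, QARS1, lower. The replicate block called 0 mitochondrial enzymes lower, 14 cytosolic enzymes higher and 7 mitochondrial enzymes higher; with 1 library left out 0 to 1 mitochondrial enzymes were lower. The cytosolic median log2 fold change was 0.40 with the abundance trend removed and 0.44 without GARS1 and KARS1. The mitochondrial median was 0.22 with the abundance trend removed and 0.12 with library totals. With that trend removed the class medians thus lay closer together than in the main fit, where they were 0.60 and 0.24. The cause was not tested. Libraries with the same number did not deviate together (correlations of −0.115, −0.00573 and −0.0391), so the replicate number is not taken to pair them, and the block changed the calls of HARS2, VARS2, EEF1E1 and EPRS1 among the members.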
